A study of Mus musculus with 24 samples.

Results

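The comparison described here set macrophages given RANKL for 5 days against macrophages kept in M-CSF alone for 5 days, in mouse cells with LysM-Cre and a Runx1 transgene placed in Rosa26. Its members are the 6 libraries labelled with that genotype and that day, 3 with M-CSF and RANKL and 3 with M-CSF alone, out of 24 libraries in the series. All genes expressed in the series were tested between them. The macrophages came from bone marrow, were grown on petri dishes and were seeded at 15000 cells per well before the medium was changed. Of each culture's total RNA, 250 ng entered the library. The study asked what a gain of Runx1 does to osteoclast formation.

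The groups used here were as follows. LysM-Cre;Rosa26-Runx1tg/+ cells at day 5 received 50 ng/mL RANKL on top of 30 ng/mL M-CSF, or M-CSF alone, for which the labels used here give no dose. The same genotype and media at day 3, and Rosa26-Runx1tg/+ cells without Cre at day 5, served to show where the response differed, with 3 libraries in each group. Every group therefore carried the Runx1 transgene, and the groups differed in whether Cre was present. LysM-Cre is expressed from the lysozyme 2 locus and is active in myeloid cells, so the transgene is meant to be on before RANKL is added. Each title carries a number from 1 to 3. No label says what that number stands for, or how old the mice were and of which sex. No label says that the libraries of a group came from separate mice or cultures, so the p-values measure the spread between these libraries, part of which may be technical.

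M-CSF keeps macrophages and their precursors alive through the receptor Csf1r. RANKL binds the receptor RANK on the same cells, and RANK works through TRAF adaptors, NF-κB and the AP-1 factors to switch on Nfatc1. Under Nfatc1 the cells fuse into osteoclasts, which seal off a patch of bone with a ring of actin, acidify it with a proton pump and digest its collagen with cathepsin K.

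Levels are given as CPM, counts per 1e6 counts of the scaled library, and differences as log2 fold changes of RANKL over M-CSF alone. A gene was called at an adjusted p under 0.05, and rose, fell, higher and lower are used of called genes. In these bulk libraries fewer cells of a type and less RNA per cell cannot be told apart. The RANKL libraries held 21857323, 18975750 and 36523995 counts and the M-CSF libraries 21133127, 23749966 and 21827084, so RANKL number 3 was the deepest. The share of counts from mitochondrial transcripts was 3.36% to 3.70% with RANKL and 1.57% to 1.78% in M-CSF alone. Across genes, the log2 CPM values of libraries correlated at 0.980 to 0.987 within the RANKL group, 0.984 to 0.989 within the M-CSF group and 0.891 to 0.911 between the groups. The number 3 libraries stood apart. They carried 847 counts from Y-linked genes with RANKL and 565 in M-CSF alone, against 0 in the other 4 libraries, while Xist had 7 and 2 counts there, so the libraries of a group did not all come from the same mouse. For some of the results in which they stood apart, calls or values without them are given.

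Runx1 (ENSMUSG00000022952, chromosome 16, 92601466 to 92826149) was measured to check the genotype label. At day 5 the LysM-Cre libraries averaged 80.6 ± 15.1 CPM with RANKL, against 68.6 ± 2.56 CPM in control cells, and 106 ± 3.97 CPM in M-CSF alone, against 106 ± 11.9 CPM in control cells (SD, n = 3 each). The log2 difference between genotypes was 0.23 with RANKL (95% interval −0.05 to 0.51) and 0.00 in M-CSF alone (−0.28 to 0.29), and neither was called (adjusted p = 1 for both). With RANKL it was 0.38 without LysM-Cre Runx1 number 3 (SE 0.13, adjusted p = 0.519) and 0.13 without number 2 (SE 0.15, adjusted p = 1). The adjusted p-values cover all tested genes and not Runx1 alone. The label calls for a higher level, so these libraries are named by their genotype label. No label used here says whether reads of the transgene count at Runx1. Between media, Runx1 had 86.3, 92 and 63.4 CPM with RANKL, against 107, 109.5 and 102 CPM in M-CSF alone, a log2 fold change of −0.40 (SE 0.14, adjusted p = 0.0179). That call is lost without RANKL number 3 (−0.25, adjusted p = 0.129), without M-CSF number 2 (−0.37, adjusted p = 0.0523) and without number 3 of both media (−0.30, adjusted p = 0.118). Cbfb, the partner that lets Runx1 bind DNA firmly, averaged 167 ± 14.2 CPM with RANKL and 157 ± 8.22 CPM in M-CSF alone and was not called. Lyz2, the locus of the Cre, had 2781, 3491 and 5196 CPM with RANKL, against 13685, 13148 and 23410 CPM in M-CSF alone. It fell by 2.13 (SE 0.30, adjusted p = 6.42e-06), with number 3 the highest library in both media. Its close copy Lyz1 may share reads with it.

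Of the 4 genes that mark the contrast, both osteoclast genes rose and both macrophage genes fell. Ctsk, the cathepsin that digests bone collagen (ENSMUSG00000028111, chromosome 3, 95499256 to 95509362), had 12938, 9020.4 and 13362 CPM with RANKL, against 3.05, 2.3 and 2.13 CPM in M-CSF alone, and rose by 12.21 log2 units (SE 0.31, adjusted p = 1.36e-16). Calcr, the calcitonin receptor of mature osteoclasts (chromosome 6, 3685680 to 3764714), had 209, 151 and 143 CPM with RANKL and 0 counts in each M-CSF library, so it was at least 3566-fold higher, taking 3 counts over the group as the floor. Siglec1, a sialic acid receptor of resident macrophages (chromosome 2, 131069220 to 131086765), had 41.7, 37.5 and 15.9 CPM with RANKL, against 2264, 2366 and 1406 CPM in M-CSF alone, and fell by 5.99 (SE 0.59, adjusted p = 3.96e-08). Number 3 was the lowest library of Siglec1 in both media, and no library of a medium overlapped the other medium for any of these genes. Fcrls, an Fc receptor-like gene of tissue macrophages (chromosome 3, 87250758 to 87263738), had 0.688, 0.623 and 0.714 CPM with RANKL, against 129, 110.2 and 129.6 CPM in M-CSF alone, and fell by 7.48 (SE 0.56, adjusted p = 8.32e-10). Per kb of gene length, Ctsk ranked 3 among the tested genes with RANKL, at 7787 CPM per kb, and 9515 in M-CSF alone, at 1.65 CPM per kb.

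**Figure D1:**
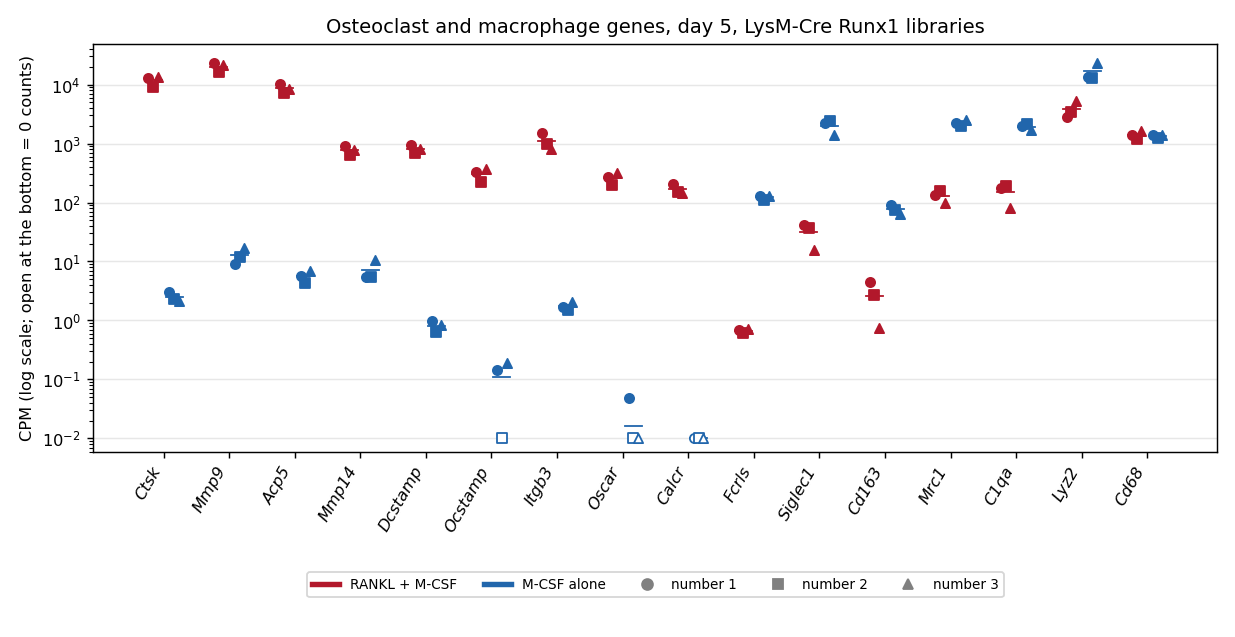
CPM on a log axis for 9 osteoclast genes and 7 macrophage genes in each library, RANKL in red and M-CSF alone in blue, with symbols for the numbers 1 to 3 and a bar at the group mean. Calcr is at 0 counts in all 3 M-CSF libraries, Cd68 overlaps between media, and the other genes do not overlap.

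The start regions of Ctsk and Fcrls, an osteoclast and a macrophage gene with changes among the largest measured, are shown because they stand for the ends of the contrast. They are RefSeq windows on GRCm38.p6, from 250 bases before to 50 after the start, read 5′ to 3′ on the gene's strand. Capitals mark TGTGGT, the core bound by Runx factors, on either strand. The windows are chr3:95498960-95499259 on the plus strand for Ctsk and chr3:87263475-87263774 on the minus strand for Fcrls.
Ctsk: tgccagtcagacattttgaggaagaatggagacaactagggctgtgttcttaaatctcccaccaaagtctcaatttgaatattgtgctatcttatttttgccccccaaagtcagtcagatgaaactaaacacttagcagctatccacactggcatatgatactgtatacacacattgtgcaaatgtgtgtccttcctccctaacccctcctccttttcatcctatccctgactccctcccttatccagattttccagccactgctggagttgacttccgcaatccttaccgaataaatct
Fcrls: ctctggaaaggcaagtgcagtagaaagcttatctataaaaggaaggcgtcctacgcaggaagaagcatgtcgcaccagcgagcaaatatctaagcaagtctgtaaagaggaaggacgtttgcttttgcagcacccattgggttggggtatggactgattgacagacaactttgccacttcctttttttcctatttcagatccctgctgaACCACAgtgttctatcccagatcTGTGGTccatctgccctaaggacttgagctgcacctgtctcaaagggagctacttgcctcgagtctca
The Fcrls window holds the core on each strand, and in the Ctsk window these letters do not occur. TGTGGT was found in 16.1% of the 1405 genes with a window that rose over 2-fold and in 18.8% of the 1226 that fell over 2-fold, against 15.3% of the 10538 tested genes with a window and 18.9% of all 27025 genes with one. The AP-1 letters TGANTCA occurred in 9.5% of those that rose and 10.0% of those that fell, against 6.5% of the tested genes and 9.0% of all. A match of letters is a description and not a bound site.

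Across the genome the change was broad. Of 15035 tested genes 7885 were called (52.4%), 4138 higher (27.5%) and 3747 lower (24.9%) with RANKL. Leaving number 3 out of both media gave 6454 calls. Changes over 2-fold took in 2036 genes higher (13.5%) and 1794 lower (11.9%), and those over 16-fold 498 higher and 111 lower. The median log2 fold change over all tested genes was 0.03, after a scaling that centres the fold changes. The groups of 3 did not overlap for 4999 genes higher (33.2%) and 4596 lower (30.6%) with RANKL. For 3746 genes (24.9%) the 95% interval of the change lay within 1.5-fold either way. Of the called genes 187 had 0 counts in M-CSF alone and 21 had 0 counts with RANKL.

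**Figure D2:**
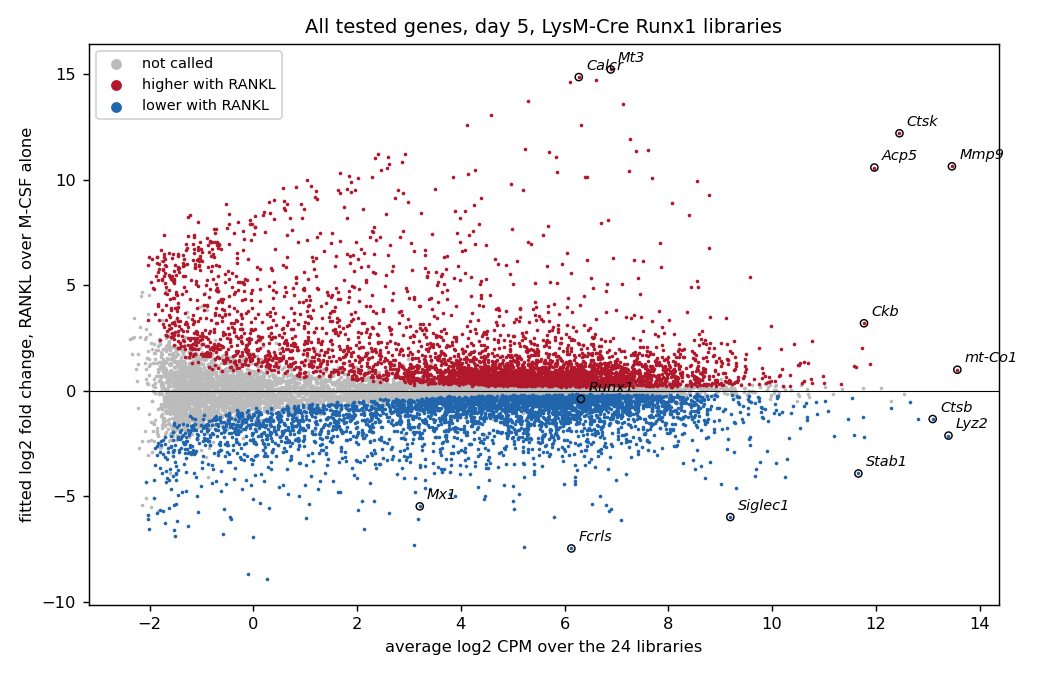
Fitted log2 fold change of RANKL over M-CSF alone against the average log2 CPM for all tested genes, with called genes in red (higher) and blue (lower). Ctsk, Mmp9 and Acp5 combine a change of over 10 log2 units with a high level.

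The largest rises were of genes with almost no counts in M-CSF alone. Mt3, a metallothionein that binds zinc and copper, had 202, 123 and 321 CPM with RANKL and 0 counts in M-CSF alone, and was at least 5147-fold higher. The same bound was 3481-fold for Mst1r, the receptor of macrophage-stimulating protein, 3200-fold for Nyap2, 1795-fold for the tetraspanin gene Tspan7, 1086-fold for the mesothelin gene Msln and 732-fold for the sialyltransferase gene St8sia6. All 3 RANKL libraries of each lay above 20 CPM. Oscar, Rufy4 and Itga2 had 1 count over the 3 M-CSF libraries, and their ratios were 17755 (counting interval 3186 to 701310), 8854 (counting interval 1589 to 349760) and 4141 (counting interval 743 to 163610). Scin, which severs actin filaments, averaged 259 ± 33.9 CPM with RANKL and 0.0584 ± 0.0647 CPM in M-CSF alone and rose by 11.92 (SE 0.36, adjusted p = 2.07e-14).

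In absolute level, the largest gains were those of Mmp9 and Ctsk. Mmp9, the matrix metalloproteinase gelatinase B, averaged 20234 ± 3385 CPM with RANKL and 12.7 ± 4.09 CPM in M-CSF alone, and Acp5, the tartrate-resistant acid phosphatase used to stain osteoclasts, 8644 ± 1419.8 CPM with RANKL and 5.65 ± 1.3 CPM in M-CSF alone (SD, n = 3 each). Ckb, the cytosolic creatine kinase, had 5921, 4269 and 6716 CPM with RANKL, against 582, 699 and 564 CPM in M-CSF alone. The other gains among the largest were of the intermediate filament gene Vim (4553 against 1111 CPM), the transferrin receptor gene Tfrc (2229 against 268 CPM) and 4 mitochondrial genes. The largest losses were of Lyz2 and of Ctsb (5369 against 13646 CPM), Fth1 (5112 against 12802 CPM), Apoe (1895 against 8817 CPM), Stab1 (408 against 6215 CPM), Lrp1, Mpeg1, Ftl1, Ctsd and Tmsb4x. These are genes of lysosomes, iron storage, lipid transport, scavenging and the macrophage pore-forming protein, with the actin-binding thymosin Tmsb4x among them.

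By fold, genes of macrophage surface and secreted proteins were among the largest falls. Fcrls was followed by Ms4a4a, a membrane protein of tissue macrophages, with 0.642, 0.675 and 0.343 CPM with RANKL, against 129, 84.1 and 60.4 CPM in M-CSF alone. The receptor gene Gpr34 averaged 0.0995 ± 0.0864 CPM with RANKL and 17.5 ± 4.25 CPM in M-CSF alone, and it lies within Cask on the opposite strand. Rnase4 and Ang, secreted ribonucleases whose genes overlap each other, fell by 6.12 and 6.08. Slco2b1, an organic anion carrier, fell by 6.01 (SE 0.53) with 5.37, 1.66 and 0.343 CPM with RANKL. F13a1, the clotting factor XIII subunit of monocytes and macrophages, fell by 5.69, Tpbgl by 5.81, Ifi213 by 5.64 and Ighm by 5.62. Stat4, a signal transducer of cytokines, had 3 counts over the RANKL libraries, and its ratio was 0.0132 (counting interval 0.0027 to 0.0392). The call of each of these held without number 3.

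Genes were then read by role, in 34 lists that hold 763 genes, of which 714 were tested, 286 rose and 248 fell. Each list stands beside all tested genes, of which 27.5% rose and 24.9% fell. The lists were chosen with earlier results of these data known, so this comparison is a description and no test.

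**Figure D3:**
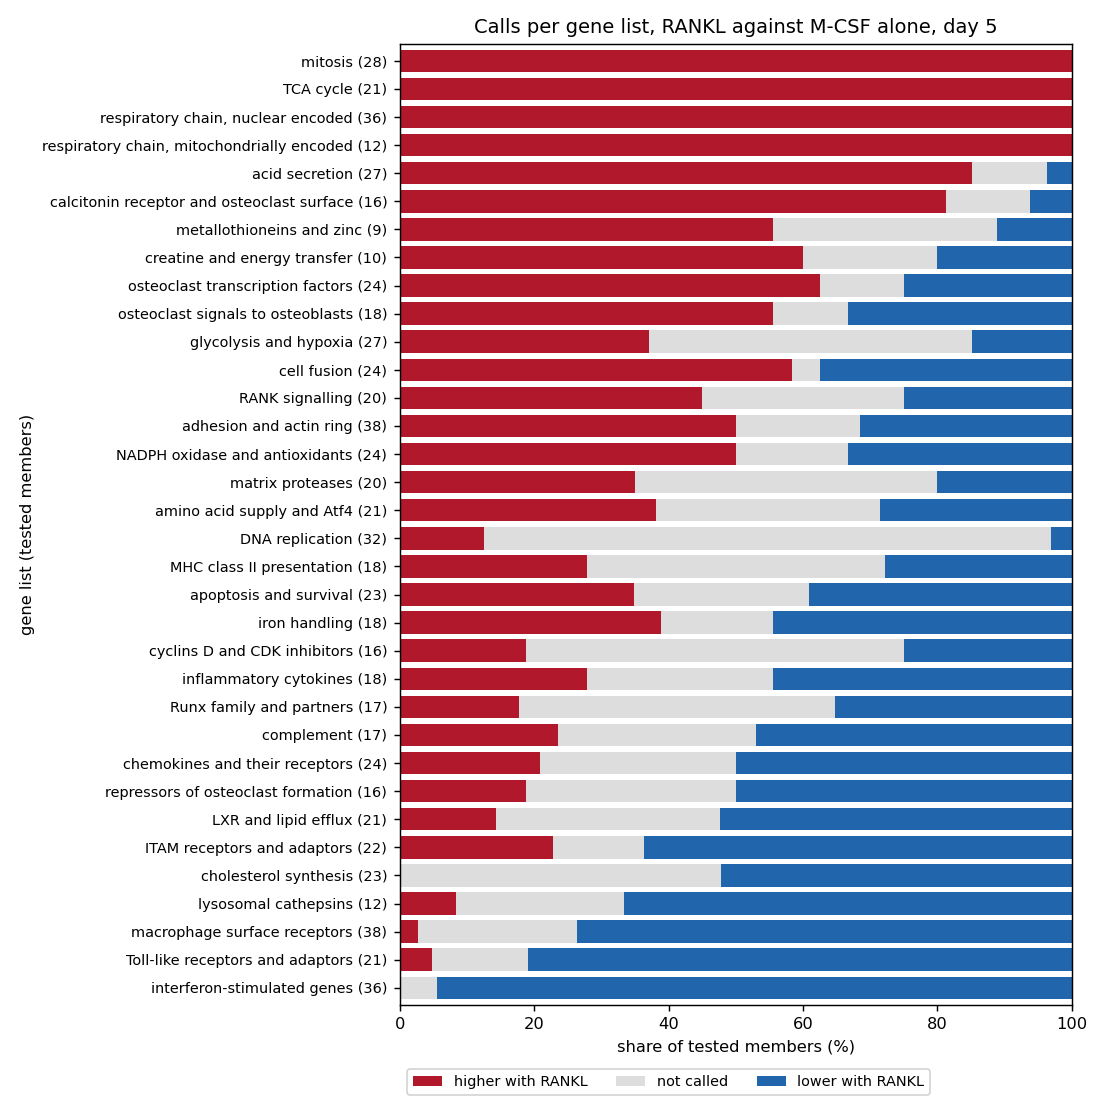
Share of the tested members of each gene list that were higher with RANKL (red), not called (grey) or lower with RANKL (blue), with the number tested in brackets. All members of the mitosis, TCA cycle and respiratory chain lists rose, and 34 of 36 interferon-stimulated genes fell.

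Most genes of the RANK pathway itself were called, the larger part of them at under 2-fold. Of 20 tested genes 9 rose and 5 fell, with a median of 0.13. Changes over 2-fold took in 5 of the rises and 0 of the falls, against 13.5% and 11.9% of all tested genes. Tnfrsf11a, which encodes RANK, had 279.8, 272 and 317 CPM with RANKL, against 146, 177 and 197 CPM in M-CSF alone, and rose by 0.74 (SE 0.21, adjusted p = 0.006). The alternative NF-κB branch moved in both directions, with Nfkb2 at 273, 295 and 292 CPM with RANKL, against 59.7, 69 and 77.2 CPM in M-CSF alone (2.06, SE 0.15). Its partner Relb rose by 1.08, and Traf3, the adaptor that holds this branch back, by 1.40. Map3k14, the kinase that starts it, had 27.4, 30.3 and 25.6 CPM with RANKL, against 37.6, 36.1 and 46 CPM in M-CSF alone, and fell by 0.52, a call lost without number 3 of both media (−0.37, adjusted p = 0.0764). Traf6, the adaptor of the canonical branch, rose by 0.67 and the cytokine-signal inhibitor Socs3 by 4.03, while Nfkb1 and Rela had values of 0.13 and 0.01 and were not called. Mapk14, the p38 kinase, fell by 0.73 (adjusted p = 1.15e-05). The falls numbered 3 when any single library other than M-CSF number 3 was left out, or number 3 of both media.

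Among 24 transcription factors of osteoclasts 15 rose and 6 fell, with a median of 0.80. Nfatc1, their master regulator, had 445, 374 and 526 CPM with RANKL, against 96.2, 83.9 and 72.8 CPM in M-CSF alone, and rose by 2.41 (SE 0.15, adjusted p = 5.43e-11). Most AP-1 members rose, by unequal amounts. Jdp2 had 529.6, 464 and 559 CPM with RANKL, against 13.8, 15 and 13 CPM in M-CSF alone (5.21, SE 0.24), and Fosl2 591, 473 and 617 CPM with RANKL, against 34.5, 43.4 and 73.2 CPM in M-CSF alone (3.48, SE 0.21). Fos rose by 2.51 (SE 0.46), Fosl1 by 2.53 and Junb by 1.88, whereas Jun was at 0.38 and not called. Bhlhe40, Ppargc1b, Prdm1 and Tfec rose by 5.05, 3.71, 3.11 and 1.07. Spi1, which encodes PU.1, rose by 0.81, and its partner Mitf was at 0.16 and not called. The falls included Nfatc2 (−1.86), the orphan receptor gene Nr4a1 (−2.30) and the lysosomal regulator Tfe3 (−0.99).

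Among 16 repressors of osteoclast formation 8 fell and 3 rose, with a median of −0.63. Irf8 had 27.3, 25.9 and 20.8 CPM with RANKL, against 178, 179.6 and 165 CPM in M-CSF alone, and fell by 2.82 (SE 0.31, adjusted p = 1.84e-07). Cebpa fell by 2.14, Rbpj by 1.25 and Bcl6 by 0.96. No RANKL library of Irf8 overlapped its M-CSF libraries. The 3 that rose were Tnfaip3 (2.12), which damps NF-κB, Dusp1 (0.83), which damps MAP kinases, and the transcription factor gene Egr2 (1.53). Among Runx factors and partners 3 rose and 6 fell of 17. Runx2, the osteoblast factor of the family, had 7.89, 8.72 and 7.89 CPM with RANKL, against 0.774, 1.15 and 2.98 CPM in M-CSF alone. It rose by 2.32. Runx2 overlaps Supt3 on the opposite strand, which averaged 21.5 CPM with RANKL and 8.09 CPM in M-CSF alone. The strand setting of the counting is not given. Runx3 was at 0.29 and not called, and Lmo2, Tle3 and Fli1, which work with Runx1 in blood cells, fell by 2.86, 2.49 and 2.35.

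Matrix proteases moved in both directions, and most lysosomal cathepsins other than Ctsk fell. Of 20 matrix proteases and their inhibitors 7 rose and 4 fell, near the shares of all tested genes, with a median of 0.97. In a fit of the 6 libraries alone with the replicate block 12 rose. Mmp14, a membrane-bound collagenase, had 921, 631 and 771 CPM with RANKL, against 5.52, 5.42 and 10.4 CPM in M-CSF alone, and rose by 6.77 (SE 0.29, adjusted p = 3.76e-13). Mmp12, macrophage elastase, rose by 1.86, while the collagenase gene Mmp13 fell by 2.44 and the sheddase gene Adam8 by 1.38. Of 12 other cathepsins and their activator legumain 8 fell and 1 rose, with a median of −1.02, and 3 rose in a fit of the 6 libraries alone. Ctsb had 5475, 5043 and 5589 CPM with RANKL, against 14074, 12879 and 13984 CPM in M-CSF alone, and fell by 1.35. Lgmn, which encodes legumain, fell by 2.58, Ctsc by 2.20, Ctsd by 1.24 and Ctss by 0.88, and Ctsz rose by 0.82. The summed CPM of these 12 genes was 13195.5, 12468.2 and 13216.9 with RANKL, against 28216.7, 26287.5 and 27572.9 in M-CSF alone.

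Acid secretion had 23 rises and 1 fall among 27 genes, with a median of 1.55. Car2, the carbonic anhydrase that supplies protons, had 258, 199 and 312 CPM with RANKL, against 0, 0.171 and 0.0945 CPM in M-CSF alone, and rose by 11.36 (SE 0.35, adjusted p = 2.12e-15). The osteoclast subunit of the pump, Atp6v0d2, had 1119, 815 and 1373 CPM with RANKL, against 29, 18.8 and 30.5 CPM in M-CSF alone. The subunits did not move equally. Tcirg1, the osteoclast form of the pump's large membrane subunit, rose by 1.96 (SE 0.19), and Atp6v0a1, another form of that subunit, had 79.1, 63.9 and 67.8 CPM with RANKL, against 274, 242 and 349 CPM in M-CSF alone, and fell by 2.04 (SE 0.16, adjusted p = 8.74e-10). Another form, Atp6v0a2, rose by 0.38, and of the paired forms of subunit d, Atp6v0d1 was at 0.22 and not called. The cytosolic subunits rose by 1.13 (Atp6v1f) to 2.34 (Atp6v1b2). The chloride channel gene Clcn7 rose by 1.90, the bicarbonate exchanger gene Slc4a2 by 2.83 and the endosomal sorting gene Snx10 by 3.43. Plekhm1 and Rab7, of lysosome trafficking, were at 0.05 and 0.08 and were not called.

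Among 24 fusion genes 14 rose and 9 fell, with a median of 1.32. Dcstamp, the membrane protein needed for fusion, had 931, 679 and 804 CPM with RANKL, against 0.968, 0.64 and 0.851 CPM in M-CSF alone, and rose by 9.94 (SE 0.34, adjusted p = 1.56e-14). Ocstamp, its relative, rose by 11.42, Slc9b2 by 8.91 and Cd200 by 8.09. The falls were of other surface proteins tied to macrophage fusion, among them the Cd200 receptor gene Cd200r1 (−2.28), Cd81 (−1.98), Trem2 (−1.74) and Sirpa (−1.27). Cd200 had 196, 149 and 262 CPM with RANKL, against 0.629, 0.64 and 0.945 CPM in M-CSF alone, while Cd200r1 had 32.5, 26.3 and 33.5 CPM with RANKL, against 164, 132 and 151 CPM in M-CSF alone. Neither gene overlapped between media.

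Genes of adhesion and the actin ring moved in both directions, integrins among them. Of 38 genes 19 rose and 12 fell, with a median of 0.38. Itgb3, of the vitronectin receptor of osteoclasts, had 1485, 980.3 and 807 CPM with RANKL, against 1.69, 1.49 and 2.08 CPM in M-CSF alone, and rose by 9.28 (SE 0.40, adjusted p = 4.36e-13), and its partner Itgav rose by 2.33. Itgb5, which pairs with the same partner in macrophages, fell by 2.35, and the leukocyte integrins Itgam and Itgal fell by 1.78 and 1.31, while Itgb1 stood at 0.00 and was not called. Src, the kinase needed for the ruffled border, had 315, 236 and 348 CPM with RANKL, against 1.6, 3.28 and 1.98 CPM in M-CSF alone, and rose by 7.02. Rhou, Cttn, Dock5, Myo10 and Vcl, all of podosomes or the actin cytoskeleton, rose by 5.28, 4.40, 3.73, 2.58 and 2.22.

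Of the ITAM receptors and adaptors, which give the co-signal to RANK, 14 of 22 fell and 5 rose, with a median of −0.70. Siglec15 had 120.2, 90 and 119.7 CPM with RANKL, against 0.194, 0.0426 and 0 CPM in M-CSF alone, and rose by 10.38 (SE 0.41, adjusted p = 9.68e-14). Oscar, described above, was the other large rise. Fc receptor genes fell, with Fcgr1 at 6.67 against 275 CPM, Fcgr3 at 60.6 against 597 CPM and Fcgr2b, the inhibitory receptor, at 19.2 against 165 CPM. The adaptors Fcer1g and Tyrobp fell by 1.44 and 0.38, and Syk, the kinase they recruit, rose by 0.55. Of 16 genes of the osteoclast surface 13 rose and 1 fell, with a median of 7.52 that was unchanged with Calcr and Tspan7 at their bounds, and the fall, of Rgs10, was not called without RANKL number 2, M-CSF number 1 or M-CSF number 2. Cd109, Steap4 and the interleukin 1 receptor gene Il1r1 rose by 6.14, 11.07 and 5.92, and the calcitonin receptor partner gene Ramp1 was at −0.10 and not called.

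Among 18 genes by which osteoclasts signal to osteoblasts 10 rose and 6 fell, with a median of 1.33. Sphk1, which makes sphingosine 1-phosphate, averaged 30 ± 10.5 CPM with RANKL and 0.0787 ± 0.102 CPM in M-CSF alone and rose by 8.51, and the cytokine gene Lif averaged 41.9 ± 11.4 CPM with RANKL and 0.166 ± 0.144 CPM in M-CSF alone. Efnb2, Sema7a, Pdgfb and Efnb1 rose by 5.90, 5.52, 3.01 and 1.47. Pdgfb had 397, 351 and 463 CPM with RANKL, against 30.8, 55.4 and 63.9 CPM in M-CSF alone. Igf1, the growth factor gene, was the largest fall of the list, with 178, 183 and 145 CPM with RANKL, against 1149, 1098 and 1223 CPM in M-CSF alone (−2.78, SE 0.28, adjusted p = 6.27e-08). The osteopontin gene Spp1 fell by 0.96 and Tgfb1 by 0.61.

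Genes of the mitochondrion rose without exception in 3 lists. All 36 nuclear genes of the respiratory chain rose, with a median of 1.04 and a range of 0.53 (Ndufb8) to 1.81 (Uqcrfs1). All 12 tested mitochondrial genes rose (10 of 12 without number 3), with a median of 1.11, and all 21 genes of the TCA cycle, with a median of 1.28. The summed CPM of the nuclear respiratory genes was 9900.8, 8735.5 and 11449.7 with RANKL, against 4587.4, 4719.8 and 4735.9 in M-CSF alone, so each RANKL library exceeded each M-CSF library. Cycs, which encodes cytochrome c, averaged 238 ± 35.6 CPM with RANKL and 68.2 ± 7.24 CPM in M-CSF alone, and Mdh2, malate dehydrogenase, 799.7 ± 146 CPM with RANKL and 174 ± 7.54 CPM in M-CSF alone. The genes mt-Nd5 and mt-Nd6 overlap, and no source used here gives the strand setting of the counting.

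Genes of energy carriers moved in both directions. Ckmt1, the mitochondrial creatine kinase, averaged 14 ± 2.39 CPM with RANKL and 0.0161 ± 0.0279 CPM in M-CSF alone, and Ak1, an adenylate kinase, rose by 2.59. The creatine carrier gene Slc6a8 rose by 1.86, while Gatm and Gamt, the enzymes that make creatine, fell by 1.61 and 1.00, which left 6 rises and 2 falls among 10 genes. Of 27 genes of glycolysis and hypoxia 10 rose and 4 fell, with a median of 0.26. Hk3, a hexokinase of myeloid cells, had 76.6, 73.3 and 77.8 CPM with RANKL, against 435, 452 and 529 CPM in M-CSF alone and fell by 2.64, while Hk1 rose by 0.94, Ldha by 0.71 and Pdk1 by 1.05. Gapdh was at 0.09 (95% interval −0.10 to 0.27) and not called.

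Among 18 genes of iron handling 7 rose and 8 fell. Tfrc had 2096, 1524 and 3068 CPM with RANKL, against 183, 199 and 422 CPM in M-CSF alone, and rose by 3.06 (SE 0.42, adjusted p = 3.36e-06), with number 3 the highest library in both media. The iron importer gene Slc11a2 rose by 1.32 and the haem synthesis gene Alas1 by 1.16. The exporter gene Slc40a1 had 64.8, 45.7 and 39.8 CPM with RANKL, against 755, 584 and 659 CPM in M-CSF alone, and fell by 3.73. Hmox1, which breaks down haem, fell by 2.88, Fth1 by 1.32 and Ftl1 by 0.84. Of 9 metallothioneins and zinc carriers 5 rose and 1 fell. Slc39a1, a zinc importer, rose by 1.59 and Slc39a8, another, fell by 1.71.

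All 28 mitosis genes were higher with RANKL, with a median of 2.45, while genes of DNA replication were mostly not called. Ccnb2, the mitotic cyclin B2, had 45.7, 56.6 and 56.6 CPM with RANKL, against 5.47, 4.9 and 5.91 CPM in M-CSF alone, and rose by 3.29 (SE 0.15, adjusted p = 7.09e-13). Ube2c, of the complex that ends mitosis, had 124, 173 and 114 CPM with RANKL, against 10.4, 10.6 and 9.78 CPM in M-CSF alone (3.74, SE 0.26). RANKL number 2 was the highest library of Ube2c. Over the list, summed CPM was 3233.1, 4311.1 and 3071.8 with RANKL, against 771.1, 748.8 and 780.7 in M-CSF alone. The proliferation marker Mki67 rose by 1.85, Top2a by 1.95 and the spindle checkpoint gene Bub1 by 2.55. All 28 rose also without number 3.

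Of 32 replication genes 4 rose and 1 fell, with a median of −0.02. The 4 rises were Tyms (1.13), Rrm2 (1.05), Tk1 (0.89) and Rrm1 (0.65), all enzymes that supply DNA precursors. Rrm1 and Rrm2 were not called without number 3 of both media or without RANKL number 2, and the fall, of E2f1, was not called without RANKL number 1, RANKL number 3 or M-CSF number 2. Mcm2 and Pcna, of the replication fork, were at −0.50 (95% interval −1.42 to 0.43) and −0.44 (−0.98 to 0.10) and were not called. In a fit of the 6 libraries alone 9 rose and 8 fell. Of the D cyclins, their kinases and inhibitors 3 rose and 4 fell among 16, near or below the shares of all tested genes. Ccnd3 fell by 0.84, Rb1 by 1.39, and the inhibitor gene Cdkn2c rose by 1.05. Ccnd1 had values of 379 ± 90.6 CPM with RANKL and 561 ± 122 CPM in M-CSF alone and was not called.

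RANKL number 2 was the highest RANKL library in summed mitosis CPM. It was the lowest of Ctsk, Acp5, Atp6v0d2, Dcstamp, Ocstamp and Oscar, while number 3 was the lowest of Itgb3 and Calcr, the other osteoclast markers. Over 8 osteoclast markers, summed CPM was 27400, 19300 and 25700 with RANKL, against 40.6, 27.5 and 42.7 in M-CSF alone. Each RANKL library thus stayed far above each M-CSF library.

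Most macrophage receptor genes fell. Of 38 genes 28 fell and 1 rose, with a median of −2.32. Mrc1, the mannose receptor, had 132, 159 and 98.8 CPM with RANKL, against 2232, 2019 and 2505 CPM in M-CSF alone, and fell by 4.12 (SE 0.31, adjusted p = 1.04e-09). Cd163, the haemoglobin scavenger receptor, had 4.45, 2.75 and 0.743 CPM with RANKL, against 90.1, 75.9 and 62.9 CPM in M-CSF alone, and P2ry12, a purine receptor, fell by 5.14. Mertk, which takes up dying cells, fell by 3.62, the scavenger receptors Stab1, Cd36 and Msr1 by 3.93, 2.26 and 1.46, and Adgre1, which encodes F4/80, by 2.28. Cd68, a lysosomal membrane protein used as a macrophage marker, had 1379.9, 1181 and 1647 CPM with RANKL, against 1415, 1242 and 1406 CPM in M-CSF alone, and was not called (0.05, 95% interval −0.18 to 0.28). The rise was of the lectin gene Clec4a2 (0.49), and 2 members rose without M-CSF number 3.

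Many genes of complement and pattern recognition fell as well. Of 17 complement genes 8 fell and 4 rose, with a median of −0.85. C1qa had 177, 191 and 80.9 CPM with RANKL, against 1995, 2167 and 1665 CPM in M-CSF alone (−3.70, SE 0.38), and C1qb and C1qc, the other chains of C1q, fell by 3.25 and 3.37. The regulators Cd55 and Cd59a rose by 2.44 and 1.68. Of 21 Toll-like receptors and adaptors 17 fell and 1 rose, with a median of −1.76. The endosomal receptors led the falls, with Tlr8 at −4.23, Tlr9 at −3.62, Tlr7 at −3.14 and Tlr13 at −2.41, and their chaperone gene Unc93b1 fell by 1.94. Tlr7 had 28.3, 35.9 and 34.7 CPM with RANKL, against 330.1, 265 and 278 CPM in M-CSF alone. Tlr4, the receptor of lipopolysaccharide, fell by 1.76, and the kinase gene Irak2 rose by 0.80, with 2 rises in the list without RANKL number 2.

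The other immune lists were mixed. Of 18 genes of MHC class II presentation 5 rose and 5 fell, near the shares of all tested genes, and the rises numbered 3 without RANKL number 1 or without any single M-CSF library. Cd74, the invariant chain, averaged 109 ± 12.6 CPM with RANKL and 58.1 ± 20.2 CPM in M-CSF alone and was not called, and H2-DMa fell by 2.22. Of 24 chemokines and receptors 12 fell and 5 rose, with 7 falls left without number 3. Ccr1, a receptor of osteoclast precursors, rose by 3.35 and its ligand gene Ccl9 by 0.72, while Pf4, Ccl6 and Ccr2 fell by 3.58, 3.38 and 2.41. Ccr1 had 487, 371 and 620.5 CPM with RANKL, against 60.7, 53.1 and 30.9 CPM in M-CSF alone. Of 18 inflammatory genes 8 fell and 5 rose. The interleukin 1 antagonist gene Il1rn rose by 3.65 and the prostaglandin synthase gene Ptgs2 by 2.45, while Nlrp3, Casp1 and Il18, of the inflammasome, fell by 1.68, 1.30 and 2.43.

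Of 36 interferon-stimulated genes, which restrict viruses, 34 fell and 0 rose, with a median of −3.04. Mx1, an antiviral GTPase, had 1.15, 0.727 and 0.429 CPM with RANKL, against 42.6, 45.6 and 11.4 CPM in M-CSF alone, and fell by 5.49 (SE 0.84, adjusted p = 1.48e-05). Ifit3, which binds foreign RNA, had 2.52, 1.35 and 1.2 CPM with RANKL, against 76.3, 66.6 and 18.8 CPM in M-CSF alone, and fell by 5.01. Irf7 and Stat2, factors that drive the group, fell by 3.43 and 3.03. The M-CSF libraries were not alike. In M-CSF alone number 3 was the lowest library for 36 of 36 of these genes, against 34.3% of all tested genes, and with RANKL for 14 of 36, against 32.8%. Their summed CPM was 706.7, 589.2 and 567.4 with RANKL, against 3942.1, 3834.3 and 2253.2 in M-CSF alone. Even the lowest M-CSF library exceeded each RANKL library, and without number 3 of both media the falls again numbered 34 with a median of −3.18.

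**Figure D4:**
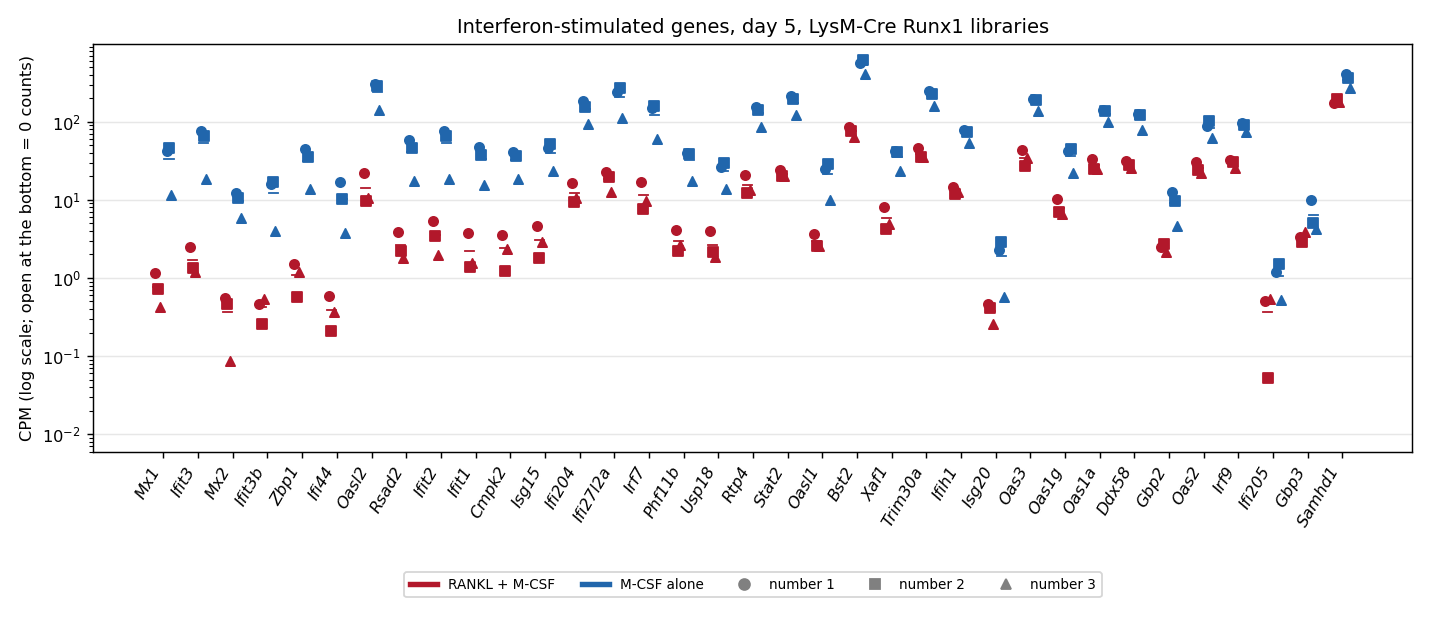
CPM on a log axis of 35 interferon-stimulated genes in each library, ordered by fold change, RANKL in red and M-CSF alone in blue, with a bar at the group mean. The M-CSF library of number 3 (blue triangles) lies below the other M-CSF libraries throughout, and for most genes above each RANKL library.

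The interferon-stimulated response element, searched on both strands as GAAA, 2 bases of any kind and GAAA in the same RefSeq windows, occurred in 17 of the 27 genes of this list that have a window (63.0%), against 3.9% of the tested genes with a window, 4.0% of all 27025, 8.9% of those that fell over 2-fold and 2.3% of those that rose over 2-fold. These matches may overlap each other. The list holds genes known for this element, so the share describes the members and is no test. The windows of Ifit3 (chr19:34583279-34583578, plus strand), Isg15 (chr4:156200769-156201068, minus strand) and Rsad2 (chr12:26456403-26456702, minus strand), on GRCm38.p6, show its forms, with the element in capitals and, in Ifit3 and Rsad2, also a match of TGANTCA.
Ifit3: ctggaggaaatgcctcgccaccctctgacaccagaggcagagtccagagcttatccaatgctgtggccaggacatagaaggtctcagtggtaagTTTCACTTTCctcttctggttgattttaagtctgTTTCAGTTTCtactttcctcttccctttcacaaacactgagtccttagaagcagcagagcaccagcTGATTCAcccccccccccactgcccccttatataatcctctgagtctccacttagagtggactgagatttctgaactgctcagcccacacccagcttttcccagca
Isg15: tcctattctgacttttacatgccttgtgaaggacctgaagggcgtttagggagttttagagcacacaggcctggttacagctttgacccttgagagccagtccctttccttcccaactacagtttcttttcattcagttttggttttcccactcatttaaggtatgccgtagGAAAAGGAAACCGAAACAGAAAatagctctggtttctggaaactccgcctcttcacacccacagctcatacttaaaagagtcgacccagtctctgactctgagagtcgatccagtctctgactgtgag
Rsad2: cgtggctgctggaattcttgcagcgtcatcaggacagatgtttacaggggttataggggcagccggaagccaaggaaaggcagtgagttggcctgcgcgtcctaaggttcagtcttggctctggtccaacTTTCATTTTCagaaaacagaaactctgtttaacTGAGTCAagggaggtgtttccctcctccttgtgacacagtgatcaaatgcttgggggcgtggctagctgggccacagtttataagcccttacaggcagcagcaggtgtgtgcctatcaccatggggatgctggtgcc
Ifit3 holds 2 matches, Isg15 a run of 3 that overlap and Rsad2 1. These genes changed by −5.01, −3.69 and −3.97, in that order.

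Lipid genes fell in part. Of 23 genes of cholesterol synthesis 12 fell and 0 rose, with a median of −0.73, and 8 fell without number 3 of both media. The regulator gene Srebf2 had 162, 148 and 182 CPM with RANKL, against 289, 232 and 309.8 CPM in M-CSF alone, and fell by 0.76 (SE 0.16, adjusted p = 0.000435). Of 21 genes of LXR and lipid efflux 11 fell and 3 rose. Apoe had 2022, 2267 and 1396 CPM with RANKL, against 10234, 9291 and 6926 CPM in M-CSF alone, and the cholesterol exporter gene Abca1 fell by 1.57, while its relative Abcg1 rose by 1.65 and Nr1h3, which encodes LXRα, by 2.11.

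Oxidant, survival and amino acid genes split. Of 24 NADPH oxidase and antioxidant genes 12 rose and 8 fell. The phagocyte oxidase genes Cybb and Ncf1 fell by 1.37 and 1.81, and Ncf4 rose by 1.01 and Nox1, another oxidase, by 3.46. Nox1 averaged only 2.25 CPM with RANKL and 0.2 CPM in M-CSF alone. It overlaps Cstf2 on the opposite strand, which averaged 94.9 CPM with RANKL and 49 CPM in M-CSF alone, and the strand setting is not given. Sod2 and Gsr rose by 0.91 and 1.22 and Cat, catalase, fell by 1.48. Of 23 apoptosis and survival genes 8 rose and 9 fell. Bcl2l1, which encodes the survival protein Bcl-xL, had 34.3, 29.9 and 28.7 CPM with RANKL, against 153, 184 and 193 CPM in M-CSF alone, and fell by 2.51, while Pmaip1, which encodes the death protein Noxa, rose by 3.59. Bcl2a1a rose by 5.89, and its near-identical copies may share reads with it. Of 21 genes of amino acid supply 8 rose and 6 fell, not far from the shares of all tested genes. The glutamine carrier gene Slc1a5 was at 2.68, Slc7a5 at 1.71 and Asns at 1.70.

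Markers of other cells were read for all members of each list. Macrophage markers summed to 3600, 3230 and 3780 CPM with RANKL, against 10200, 9900 and 9360 CPM in M-CSF alone, and 7 of 8 fell. Markers of stromal cells and osteoblasts summed to 464, 315 and 47.5 CPM with RANKL, against 189, 201 and 29.3 CPM in M-CSF alone. Number 3 was the lowest library of 9 of the 10 tested members in each medium, and 2 members, Dcn and Runx2, rose, with Dcn at 4.44 ± 1.32 CPM with RANKL and 0.156 ± 0.171 CPM in M-CSF alone. The rises numbered 4 without RANKL number 3 and 6 in a fit of the 6 libraries alone with the replicate block. Monocyte and progenitor markers summed to 41.9, 55.9 and 73.9 CPM with RANKL, against 310, 256 and 351 CPM in M-CSF alone. They had 3 rises and 3 falls among 12, near the shares of all tested genes. F13a1 made up most of the M-CSF sum. Vcan, with means of 41.6 CPM with RANKL and 1.98 CPM in M-CSF alone, made up most of the RANKL sum. Endothelial markers had 1 rise, of Vwf, and 2 falls, of Cdh5 and Kdr, among 4 tested, and summed to 29.7, 24.5 and 23.7 CPM with RANKL, against 27.2, 25.5 and 20.5 CPM in M-CSF alone. Of 10 erythroid and megakaryocyte markers 2 were tested and 0 called, with Hba-a1, Hba-a2 and Hbb-bt among those at 0 in all 6 libraries. Of 9 mast cell and basophil markers none was tested and 5 had 0 counts in all 6 libraries. Lymphoid markers summed to 85.5, 61.4 and 66.5 CPM with RANKL, against 106, 82.1 and 113 CPM in M-CSF alone. They had 1 fall, of Ighm, among 4 tested, with Cd3e and Cd8a among those at 0 in all 6 libraries. Il7r had 1390, 1021 and 2231 counts with RANKL, against 1344, 1270 and 1766 in M-CSF alone. Cd4 had 457, 146 and 69 counts with RANKL, against 295, 194 and 51 in M-CSF alone. Neutrophil markers summed to 153, 135 and 167 CPM with RANKL, against 213, 261 and 229 CPM in M-CSF alone, with 4 falls among 10 tested (1 without RANKL number 2, 2 without M-CSF number 2). Dendritic markers had 3 rises and 0 falls among 6 tested. They summed to 117, 88.7 and 101 CPM with RANKL, against 19.1, 16.1 and 19.8 CPM in M-CSF alone. Nearly all of the sum came from Itgax, an integrin that osteoclasts also carry. Zbtb46, another of these markers, had 65, 53 and 110 counts with RANKL, against 2, 15 and 0 in M-CSF alone. The part of such other cells in the results above was not tested.

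The response was set against that of control cells without Cre at day 5. Unlike LysM-Cre number 3, each control library at day 5 held at most 1 Y-linked count and 15648 to 25053 Xist counts. The genotypes thus differed in this as well as in Cre. The difference of the responses, a test of interaction, called 0 of 15035 genes (0%), and 481 had an unadjusted p under 0.05. DESeq2 also called 0, with 519 at an unadjusted p under 0.05. For 8977 genes (59.7%) the 95% interval of the difference lay within 2-fold either way. On its own, the response of control cells called 7434 genes (49.4%), 3966 higher (26.4%) and 3468 lower (23.1%) with RANKL, a count that does not test the difference. For Ctsk the control cells had 11742 ± 328 CPM with RANKL and 1.9 ± 0.1 CPM in M-CSF alone, and the difference was −0.38 (95% interval −1.08 to 0.31). For Siglec1 the control cells had 24.2 ± 9.48 CPM with RANKL and 1409 ± 244 CPM in M-CSF alone, with a difference of −0.13 (−1.55 to 1.28), and for Nfatc1 457 ± 14.4 CPM with RANKL and 67 ± 4.62 CPM in M-CSF alone, with a difference of −0.36 (−0.79 to 0.08). Since Runx1 itself was not called between these labels, no direction is drawn from the genotype.

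The response was also set against that of the same genotype at day 3, where 8903 genes were called (59.2%). The difference of responses called 2288 genes (15.2%), 1216 with a more positive value at day 5 (8.09%) and 1072 with a more negative value (7.13%). Without number 3 of the 4 LysM-Cre Runx1 groups it called 1978 genes. Of the 1216, 499 rose at day 5, 303 fell and 414 were not called. In 282 genes RANKL gave a rise at day 5 and a fall at day 3, in 56 the reverse, and the difference was called in each of these. All 28 mitosis genes rose at day 5 and fell at day 3. Ccnb2 at day 3 had 37.7 ± 7 CPM with RANKL and 91.4 ± 7.6 CPM in M-CSF alone, a fall of 1.28, and the difference, day 5 minus day 3, was 4.57 (SE 0.21, adjusted p = 8.36e-12). From these means the level in M-CSF alone was 5.43 CPM at day 5, against 91.4 CPM at day 3, and with RANKL 53 CPM at day 5, against 37.7 CPM at day 3. At day 3 18 of the 32 replication genes fell and 1 rose (30.1% and 29.1% of all tested genes).

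**Figure D5:**
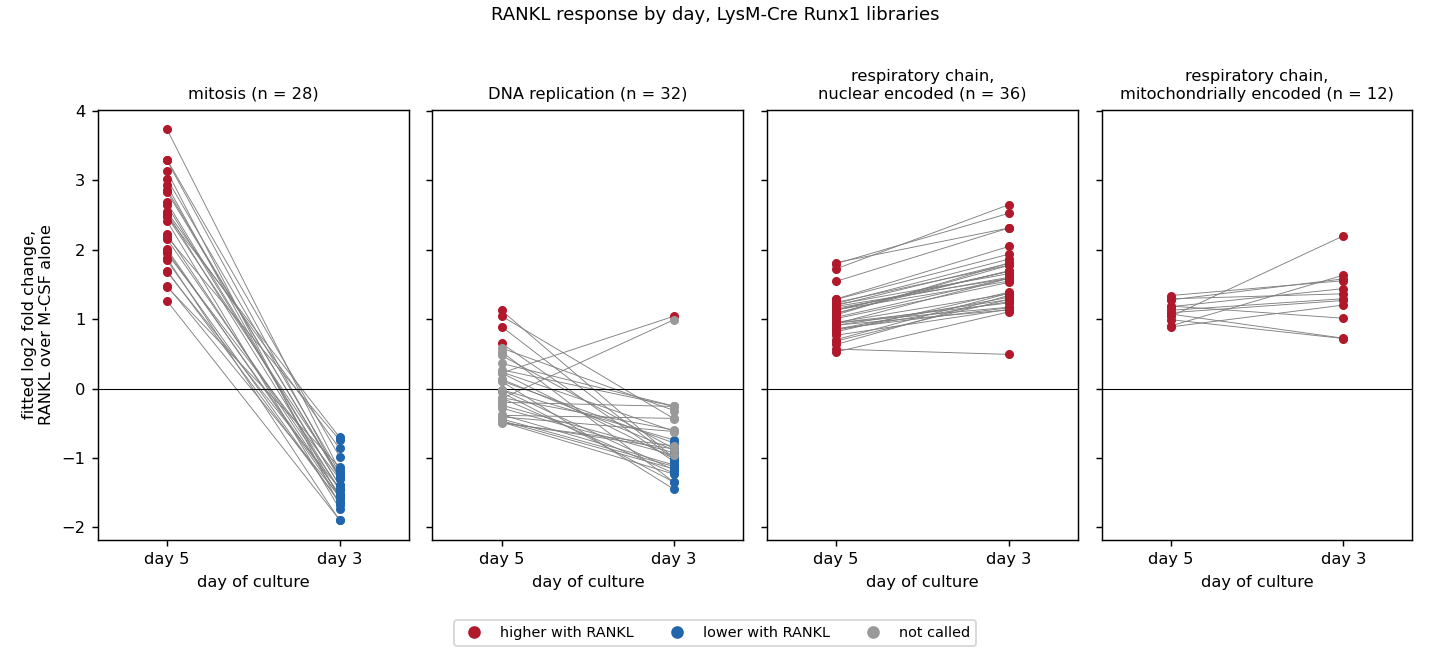
Fitted log2 fold change of RANKL over M-CSF alone at day 5 and day 3 in LysM-Cre Runx1 libraries, a line per gene, for mitosis, DNA replication and the nuclear and mitochondrial genes of the respiratory chain. Mitosis genes lie above 0 at day 5 and below 0 at day 3, and the respiratory genes lie above 0 on both days.

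Many respiratory and TCA cycle genes had a smaller response at day 5. The difference was called negative for 23 of 36 nuclear respiratory genes and 14 of 21 TCA cycle genes, with medians of −0.56 and −0.63, and positive for 0 and 1. The 23 became 11 without RANKL number 1 of day 3, and 11 without RANKL number 2 of day 5. The response of Cycs was 1.80 at day 5, against 2.52 at day 3, and that of Mdh2 2.20 at day 5, against 2.84 at day 3. Mmp9 had 26891 ± 5138 CPM with RANKL and 4.77 ± 0.959 CPM in M-CSF alone at day 3, and its difference was −1.82 (SE 0.30, adjusted p = 0.000237). Fcrls at day 3 had 4.18 ± 3.71 CPM with RANKL and 125 ± 30.5 CPM in M-CSF alone. Its response was more negative at day 5, with a difference of −2.55 (SE 0.71, adjusted p = 0.018). That call of Fcrls was lost with no filter on low counts and without RANKL number 2 of day 3. Ctsk, Calcr and Siglec1 had differences of 0.89, 1.84 and −0.38, none of them called (adjusted p = 0.0582, 0.793 and 0.777), and the value of Calcr is not firm because it had 0 counts in M-CSF alone at day 5.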

How the data were processed

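RNA-seq was run on 24 libraries of mouse bone marrow macrophage cultures, 3 per group, and 6 are compared here. The deposited table gives raw read counts for each gene as whole numbers. STAR, DESeq2 and GRCm39 are named in the submitters' processing notes, while positions match GRCm38 (GENCODE M21 coordinates for 98.3% of identifiers) and are given as deposited. No source used here gives versions, strand setting or counting rules.

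From those counts, edgeR 4.0.16 in R 4.3.3 fitted a quasi-likelihood model with robust dispersion to all 24 libraries with 8 group coefficients, after TMM scaling and filterByExpr, which kept 15035 of 54532 genes. Each adjusted p is Benjamini-Hochberg over these genes, called under 0.05. Each SE was derived from the fold change on the log2 scale and the F value, and intervals are at 95%. DESeq2 1.42.0, RLE scaling, no filter on low counts, the replicate block, the 6 libraries alone and leaving out libraries were the alternatives. CPM use TMM-scaled totals, and 1 read is worth 0.0286 to 0.0519 CPM in the 6 libraries. Floors and counting intervals cover counting error only.

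Same-numbered libraries of the 2 media deviated together from their group means. The correlations across genes were 0.210, 0.166 and 0.369 for numbers 1, 2 and 3, which pairs these libraries by the rule used here. Numbers 1 and 2 were less clearly told apart. M-CSF number 2 correlated at 0.131 with RANKL number 1, and M-CSF number 1 at 0.0401 with RANKL number 2. The calls reported come from the fit without this block, and the replicate block is an alternative. The fit was tested on simulated data, with libraries drawn independently and few genes changed, unlike the data here. Of 100 genes changed 2-fold, 83 were recovered between media, 69 in the difference from control cells and 71 in that from day 3. False calls numbered 11, 10 and 6, in that order. Scaling under so broad a change was not tested.

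Genes were named by rule: the 12 largest rises and falls among called genes that reach an average log2 CPM of 1 and do not overlap, the 10 largest gains and losses in CPM, the 8 largest day differences in each direction, and members of the lists. The members and lists were chosen with earlier results of these data known. Sequences are from RefSeq (GRCm38.p6), where 10538 of the tested genes matched by symbol. Siglec1 is named only. Some list members are not reported here by name, though they are in the counts.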

Additional observations from a re-analysis of the deposited data

Results flagged for a closer look

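In 16 genes the response to RANKL differed most between day 5 and day 3 in the LysM-Cre Runx1 libraries, by the test of that difference with edgeR. In 8 genes, most of them of cell division, the response was more positive at day 5, with log2 differences, day 5 minus day 3, of 5.35 for Sapcd2, 4.92 for Ube2c, 4.87 for Pif1, 4.82 for Cenpf, 4.74 for Aspm, 4.61 for Pimreg, 4.57 for Ccnb2 and 4.53 for Cdkn3. Sapcd2, which acts in spindle orientation, had 13.9, 19.7 and 11.3 CPM with RANKL at day 5, against 1.65, 0.853 and 1.18 CPM in M-CSF alone. At day 3 it had 2.84 ± 1.63 CPM with RANKL and 9.59 ± 2.93 CPM in M-CSF alone. The calls of these 8 held under each alternative run.

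In 8 genes the response was more negative at day 5, with log2 differences of −6.02 for Lpin3, −4.44 for Slc6a17, −4.28 for Atf7ip2, −4.03 for Sema7a, −3.96 for Cdkn2b, −3.92 for Ltbp1, −3.91 for Lox and −3.90 for Hist2h3c2. Lpin3 had 0 counts in M-CSF alone at day 3, so its fitted value depends on the prior count, and its call was lost under 11 alternatives. The call of Slc6a17 was lost without M-CSF number 3 of day 5, where the difference was −1.69 (adjusted p = 0.636), and under 4 other alternatives. Sema7a was at −7.99 without M-CSF number 3 of day 3 and −8.40 without number 3 of the 4 groups, and stayed called. The call of Ltbp1 was lost without number 3 of the 4 LysM-Cre Runx1 groups (−3.45, adjusted p = 0.0687) and with no filter on low counts. The response of Cdkn2b, a CDK inhibitor, was −0.66 at day 5 and not called, against 3.30 at day 3. Its level in M-CSF alone was 9.47 CPM at day 5, against 1.89 CPM at day 3.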

How the results depend on the processing

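The number of genes called between media at day 5 was 7900 with RLE scaling, 8113 with DESeq2, 7081 with no filter, 8062 with the replicate block, 8225 in the 6 libraries alone, 8689 there with the replicate block and 3830 when a change over 2-fold was also required. Leaving out 1 library gave 6902 to 7242 calls. The difference from control cells stayed at 0 calls under each alternative run. The difference from day 3 gave 2534 calls with the replicate block. Number 3 of the LysM-Cre Runx1 libraries carried Y-linked counts also at day 3 (542 with RANKL, 622 in M-CSF alone). Numbers 1 and 2 are not shown to pair days. The lower calls of the difference from day 3 numbered 649 with no filter. They numbered 703 to 1233 when 1 library was left out, the fewest without RANKL number 2 of day 5. Among the list members and the genes picked by rule, named here or not, 584 were called. Of these 507 kept their call under each alternative, 0 turned their direction and 49 lost the call without number 3 of both media. The replicate block ended 1 of these calls, of Sesn2 (−0.67, adjusted p = 0.0502). Genes named as not called whose sign moved between settings are counted as kept. Depth limits genes near 1 read.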

Other observations

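Transcription factors were also read by family, by a rule chosen after the values were seen. Of 871 tested factors 171 rose and 273 fell, against 27.5% and 24.9% of all tested genes. Of 8 interferon regulatory factors 7 fell and 1 rose, with a median of −1.41, and of 10 factors with a Rel homology domain (NF-κB and NFAT) 5 rose and 1 fell, with a median of 0.74. Of 417 zinc finger factors of the C2H2 class 58 rose and 122 fell, with a median of −0.17. Among the largest rises outside the lists above were those of Mycl (8.82), Zeb1 (2.72) and Hmgb3 (2.58). Zfp827 had 1 count over the 3 M-CSF libraries, and its ratio was 1051 (counting interval 188 to 41554). Mycl had 35.3, 53.6 and 43.3 CPM with RANKL, against 0, 0.0426 and 0.236 CPM in M-CSF alone. The largest falls were of Lyl1 (−5.22) and Maf (−4.44), with Maf at 44.4, 53.9 and 46.4 CPM with RANKL, against 1033, 1042 and 1070.4 CPM in M-CSF alone.

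Of 435 tested lincRNA genes 85 rose and 98 fell, and of 487 antisense genes 52 rose and 89 fell, against 27.5% and 24.9% of all tested genes. Antisense counts cannot be told apart from those of the partner gene without a strand setting.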
